A study of Homo sapiens with 12 samples.

Results

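The genes of the translation initiation and elongation factors were followed through RNA-seq libraries of the established T lymphoblast line CCRF-CEM, which comes from a leukemia. Members were taken by name from the deposited gene tables. A gene was a member if its symbol began with EIF or EEF and a digit, did not have the form of a pseudogene name, was not an eIF2 kinase gene and lay on an autosome. It also needed at least 20 exonic reads in each of the 12 libraries. The pattern matched 158 names. Names ending in P or in P and digits (95), eIF2 kinase genes (4) and genes on X or Y (3) were left out, and 4 of the 56 autosomal genes had too few reads. The remaining 52 genes are 52 of 44147 features listed and of 23045 genes tested. Among them is EEF1E1-BLOC1S5, a read-through gene whose exons hold nearly all reads of the member EEF1E1. The name rule also removed 3 genes of eIF4E-binding proteins, which are not pseudogenes and are described with their pathway.

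The 4 groups held 3 libraries each. They were SLFN11-knockout cells given 100 nM prexasertib for 6 h, SLFN11-knockout cells given DMSO, parent cells given 100 nM prexasertib for 6 h and parent cells given DMSO. SLFN11 belongs to the Schlafen proteins and acts at stalled replication forks, prexasertib inhibits the checkpoint kinase CHK1, and DMSO is its solvent. The parent cells are labelled wild-type. The labels do not say whether the knockout line is 1 clone, nor whether replicate libraries were made from separate cultures. P-values therefore measure how these libraries spread, and that spread may be technical.

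Record labels and library names disagree about treatment. Each of the 12 records carries, in its title, the name of a library whose file belongs to the opposite treatment in the same line. Libraries are grouped here by the record that holds the file, and the groups are called labelled prexasertib and labelled DMSO throughout. Should the names in the titles be right, every difference by treatment and every difference between the lines in it has the opposite sign, and the comparison of the lines under labelled prexasertib trades places with that under labelled DMSO.

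Initiation begins when eIF2, bound to GTP and the initiator tRNA, joins the small ribosomal subunit with eIF1, eIF1A, eIF3 and eIF5. The cap-binding complex eIF4F brings this assembly to the mRNA, start codon recognition triggers GTP hydrolysis with the help of eIF5, and eIF5B joins the large subunit. The exchange factor eIF2B recharges eIF2, and stress kinases that phosphorylate eIF2 block this step and slow initiation across the cell. In elongation, eEF1A delivers aminoacyl-tRNA and eEF2 moves the ribosome along the mRNA, while the kinase eEF2K inhibits eEF2.

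The mRNAs of many ribosomal proteins and some translation factors begin with a terminal oligopyrimidine (TOP) motif, a cytidine followed by a run of pyrimidines, through which mTOR controls their translation. Start windows from RefSeq (GRCh38.p14) were at hand for 43 of the 52 members. The letters of a TOP start, a C at the annotated first base and at least 4 further pyrimidines, stood in 10 of these 43 (23.3%). They stood in 4.04% of all 27305 windows and in 41 of 60 windows of ribosomal protein genes (68.3%). A match is a description of these letters at the annotated start and not evidence of a regulated mRNA. All 10 matches are printed because results are given for this set below, together with the starts of EIF5, EIF3B and EIF4G1, whose response differed between the lines. Each window runs 5′ to 3′ from 15 bases before the annotated start, and the capitals mark the unbroken pyrimidine run from the start where it begins with C and is long enough.
EEF1A1 (chr6:73521018-73521047, minus strand): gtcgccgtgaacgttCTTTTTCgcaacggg
EEF2 (chr19:3985449-3985478, minus strand): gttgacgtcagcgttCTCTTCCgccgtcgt
EIF2A (chr3:150546772-150546801, plus strand): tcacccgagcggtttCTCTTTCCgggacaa
EIF2D (chr1:206612451-206612480, minus strand): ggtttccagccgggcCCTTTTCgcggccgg
EIF3D (chr22:36529152-36529181, minus strand): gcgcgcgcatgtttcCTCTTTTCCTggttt
EIF3F (chr11:7987322-7987351, plus strand): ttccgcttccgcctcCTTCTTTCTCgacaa
EIF3K (chr19:38619173-38619202, plus strand): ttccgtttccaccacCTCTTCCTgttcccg
EIF3M (chr11:32583816-32583845, plus strand): gcgcggcccagttccCTTTTCCggtcggcg
EIF4A2 (chr3:186783562-186783591, plus strand): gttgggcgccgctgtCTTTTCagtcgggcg
EIF4B (chr12:53006441-53006470, plus strand): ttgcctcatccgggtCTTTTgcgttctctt
EIF5 (chr14:103334222-103334251, plus strand): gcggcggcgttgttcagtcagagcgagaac
EIF3B (chr7:2354812-2354841, plus strand): ccccgtcgcacgcacatggctgggctgtag
EIF4G1 (chr3:184314591-184314620, plus strand): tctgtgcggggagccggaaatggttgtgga

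The member whose RNA differed most by treatment in parent cells is EIF5, and the elongation factor EEF2 is the most abundant member called in that comparison. Their upstream sequences are printed for this reason, from RefSeq (GRCh38.p14) and ending at the annotated start. In the EIF5 sequence the capitals mark the motif CCAAT, which begins 109 and 77 bases before the start. CCAAT stood on either strand, in the 250 bases before the start, in 33.04% of all windows and in 19 of the 43 members with a window. In the EEF2 sequence the capitals mark TGACGTCA, the palindromic cAMP response element, 13 bases before the start. It stood in 1.765% of all windows (482 of 27305) and in 1 of the 43 members with a window. These are matches of letters, and nothing about the binding of a factor was measured.
EIF5 upstream (chr14:103334087-103334236, plus strand): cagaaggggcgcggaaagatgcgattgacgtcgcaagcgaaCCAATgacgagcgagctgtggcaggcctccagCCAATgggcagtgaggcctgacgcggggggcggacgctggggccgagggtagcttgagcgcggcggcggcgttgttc
EEF2 upstream (chr19:3985464-3985613, minus strand): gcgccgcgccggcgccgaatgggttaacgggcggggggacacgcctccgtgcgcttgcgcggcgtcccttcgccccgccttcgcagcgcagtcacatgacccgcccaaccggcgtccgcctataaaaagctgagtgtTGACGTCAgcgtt

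The libraries held 47887791 to 77548202 exonic reads. SLFN11 RNA averaged 88.4 ± 3.0 CPM (reads scaled to library size, with TMM factors) in knockout libraries labelled prexasertib and 67.2 ± 1.68 CPM in those labelled DMSO. In parent libraries it averaged 117 ± 1.31 CPM under labelled prexasertib and 95.6 ± 4.65 CPM under labelled DMSO (SD, n = 3 for every group). It was lower in knockout libraries of either label but still read, and the RNA of a disrupted gene checks the line labels only weakly. All 11 markers of T lymphoblasts were above 1 TPM (the authors' length-scaled abundance) in each group, with sums of 1105 to 1143 and 1063 to 1098 TPM in knockout libraries labelled prexasertib and DMSO, against 886 to 942 and 735 to 765 TPM in the parent libraries with these labels. Averaged over the 12 libraries, 0 of 5 myeloid and 0 of 3 erythroid markers passed 1 TPM. So did 1 of 4 B-cell markers and 1 of the 4 epithelial and fibroblast markers found in the files, of 5 listed. The latter, EPCAM, averaged 5.17 and 4.78 TPM in knockout libraries labelled prexasertib and DMSO. In the parent libraries with these labels it averaged 0.599 and 0.614 TPM, under 1 TPM. The B-cell sum was 24.5 to 28.5 TPM in knockout libraries, against 11.9 to 16.75 TPM in parent libraries, and the epithelial and fibroblast sum 5.19 to 6.00 TPM against 0.885 to 1.23 TPM. These sums and that of T lymphoblasts moved with the line, the T lymphoblast and B-cell sums also with the label in parent cells, and their part in the results was not tested. Fewer cells of a type and less RNA per cell cannot be told apart in bulk libraries. A single library stood apart. Introns held 30.27% of reads in parent replicate 1 labelled prexasertib, against 23.93 to 26.37% in the other 11 libraries, and values without it are given where a call described below turns on it.

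The elongation factors were by far the most abundant members. EEF1A1, which encodes eEF1A, averaged 1733 TPM over the 12 libraries, EEF1G of the eEF1B exchange complex 562 TPM and EEF2 504 TPM. EEF1B2, another exchange subunit, averaged 208 TPM and EIF4A1, the main mRNA helicase of eIF4F, 207 TPM. The median member had 30.1 TPM. In all 9 members averaged over 100 TPM, 34 between 10 and 100 TPM and 9 under 10 TPM. EEF1A1 counts may include reads of near-identical pseudogene copies.

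Paralogs differed in level. EIF4A1 stood at 207 TPM and EIF4A2 at 72.1 TPM, EIF1 at 34.9 TPM and EIF1B at 8.06 TPM, EIF5A at 140.4 TPM and EIF5A2 at 3.08 TPM, and EIF4E at 11.8 TPM and EIF4E2 at 8.19 TPM. Among the scaffolds, EIF4G2 had 98.3 TPM, EIF4G1 50.9 TPM and EIF4G3 8.90 TPM. The genes left out for few reads were EEF1A2, the eEF1A gene of muscle and neurons, with 2 to 38 exonic reads a library, EIF4E3 with 4 to 62, EIF4E1B with 0 to 2, and the intronic transcript EIF2B5-IT1 with 0.

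The 52 genes together held 2.087 ± 0.0084% of exonic reads in knockout libraries labelled prexasertib and 2.082 ± 0.0047% in knockout libraries labelled DMSO. In parent libraries they held 2.11 ± 0.11% when labelled prexasertib (1.98, 2.18 and 2.17%) and 2.02 ± 0.016% when labelled DMSO (SD, n = 3 each). The exact two-sided permutation test gave p = 0.4 for treatment in knockout cells and p = 0.4 in parent cells. For knockout against parent cells the exact test gave p = 1 under labelled prexasertib and p = 0.1 under labelled DMSO, which is the smallest p that 3 libraries against 3 allow. Without EEF1A1 the share was 1.226 ± 0.0063% in knockout libraries labelled DMSO, 1.205 ± 0.041% in parent libraries given the prexasertib label and 1.143 ± 0.0039% in parent libraries given the DMSO label. The exact p was then 0.1 for treatment in parent cells and for the lines under labelled DMSO. On the TPM scale the 52 genes held 0.559 ± 0.0081% in knockout libraries labelled prexasertib, 0.557 ± 0.0097% in knockout libraries labelled DMSO, 0.512 ± 0.026% in parent libraries labelled prexasertib and 0.467 ± 0.013% in parent libraries labelled DMSO. There the exact p was 0.8 for treatment in knockout cells and 0.1 for treatment in parent cells and for the lines under either label.

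**Figure D1:**
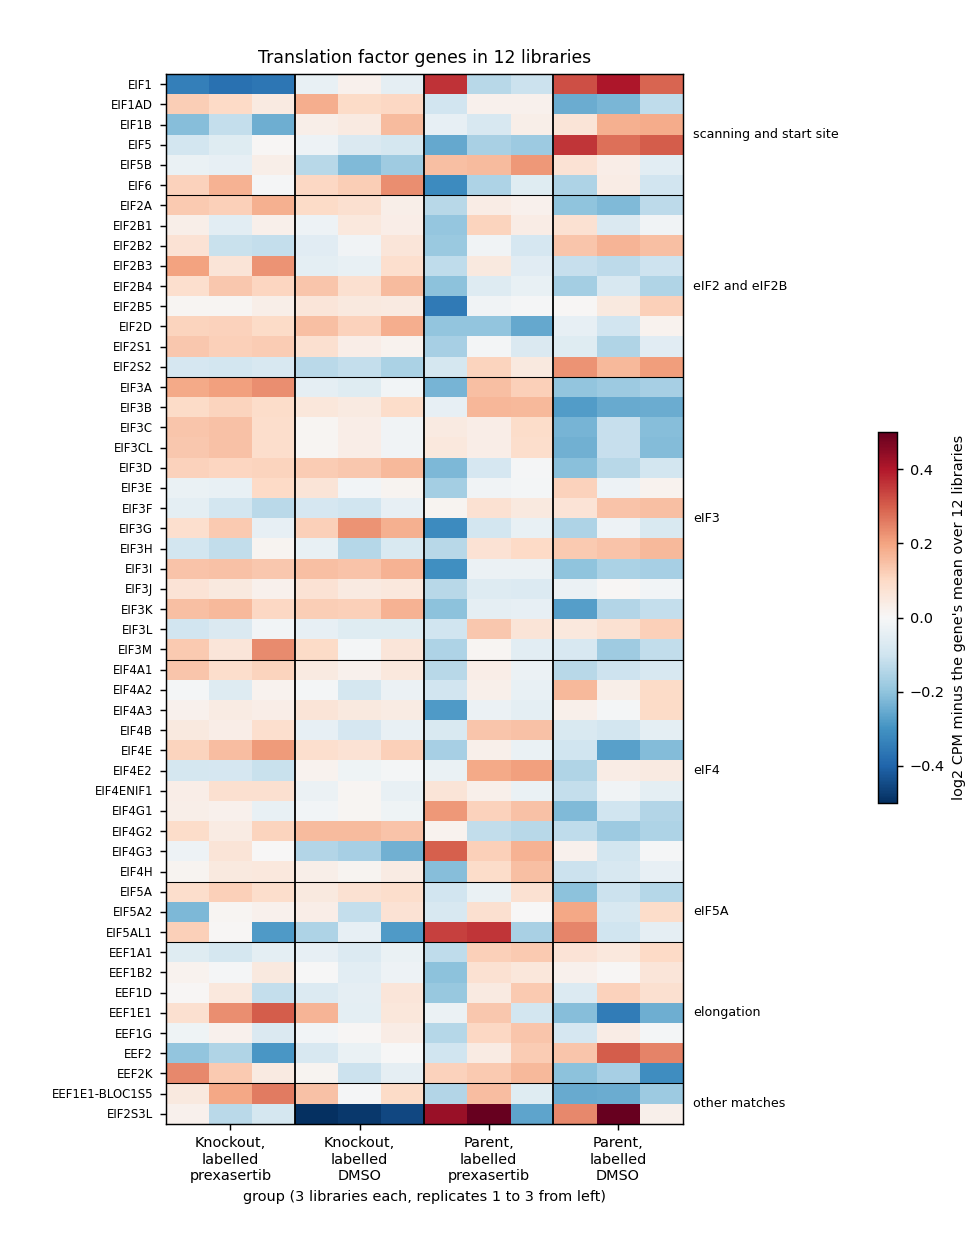
Log2 CPM of the 52 members (rows, by role) in the 12 libraries (columns, by group), each minus the gene's mean over the 12 libraries, with colours ending at 0.5 either way and values beyond shown in the end colour. The 3 parent libraries labelled DMSO are high in EIF5 and low in EIF3B and EIF4G1, and EIF2S3L, at 1.0195 to 2.21 CPM, passes the end of the scale.

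Differences by treatment were called by edgeR's quasi-likelihood test when the p adjusted by Benjamini and Hochberg's method over all 23045 genes was 0.05 or less, and every adjusted p below comes from that fit. In knockout cells, where 12.9% of all genes tested were called, 3 members were higher and 1 was lower in labelled prexasertib, 7.69% of the 52. In parent cells, where 36.3% of all genes were called, 14 members were higher and 8 lower in labelled prexasertib, 42.3% of the 52. The 14 include EIF3C with its near-identical copy EIF3CL, and EEF1E1 with the read-through gene EEF1E1-BLOC1S5. Reads within each pair largely cannot be told apart, so the members of a pair are not independent counts. Of all genes 6.11% were called higher and 6.83% lower in knockout cells, and 18.2% each way in parent cells. No member differed 2-fold in either line, where 214 of the 23045 genes in knockout cells and 1031 of the 23045 in parent cells were called and did. Such genes were few, so the absence among the 52 is not read as a result about the members.

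The changes of members were small beside those of all genes tested, but the sets were not matched for read depth. Members needed at least 20 exonic reads in every library, while the filter on all genes had a minimum of 10. The part of depth in the sizes below and in the shares called was not tested. The median size of the log2 fold change over the 52 was 0.054 in knockout cells and 0.13 in parent cells, against 0.16 and 0.27 over all genes tested. The signed medians were 0.01 and 0.05, against -0.00 and 0.04 over all genes. Groups did not overlap for 22 of 52 members in knockout cells, where they did not overlap for 34.3% of all genes, and for 22 of 52 in parent cells, where the share over all genes was 43.3%. On the authors' TPM scale the parent split was 28 higher and 1 lower, and after centring TPM on well-expressed genes it was 12 and 11. In knockout cells these splits were 1 and 1, and 1 and 2. Short RNAs of the RN7SL and RN7SK families took 49.1 ± 0.48% of TPM in knockout libraries labelled prexasertib and 49.2 ± 0.90% with the DMSO label. In parent libraries they took 53.1 ± 0.54% with the prexasertib label and 50.96 ± 0.87% with the DMSO label (SD, n = 3 each). The TPM scale moved the median of all genes by 0.05 in parent cells relative to exonic counts, and centred TPM moved it by -0.10. Without parent replicate 1 labelled prexasertib, 21 members were higher and 8 lower in parent cells, where 36.5% of 23625 genes were called. Without parent replicate 2 labelled DMSO, 5 were higher and 10 lower. The shares of all genes called on the TPM scales and in that last fit are not given. Those splits are therefore not read as results about the members.

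**Figure D2:**
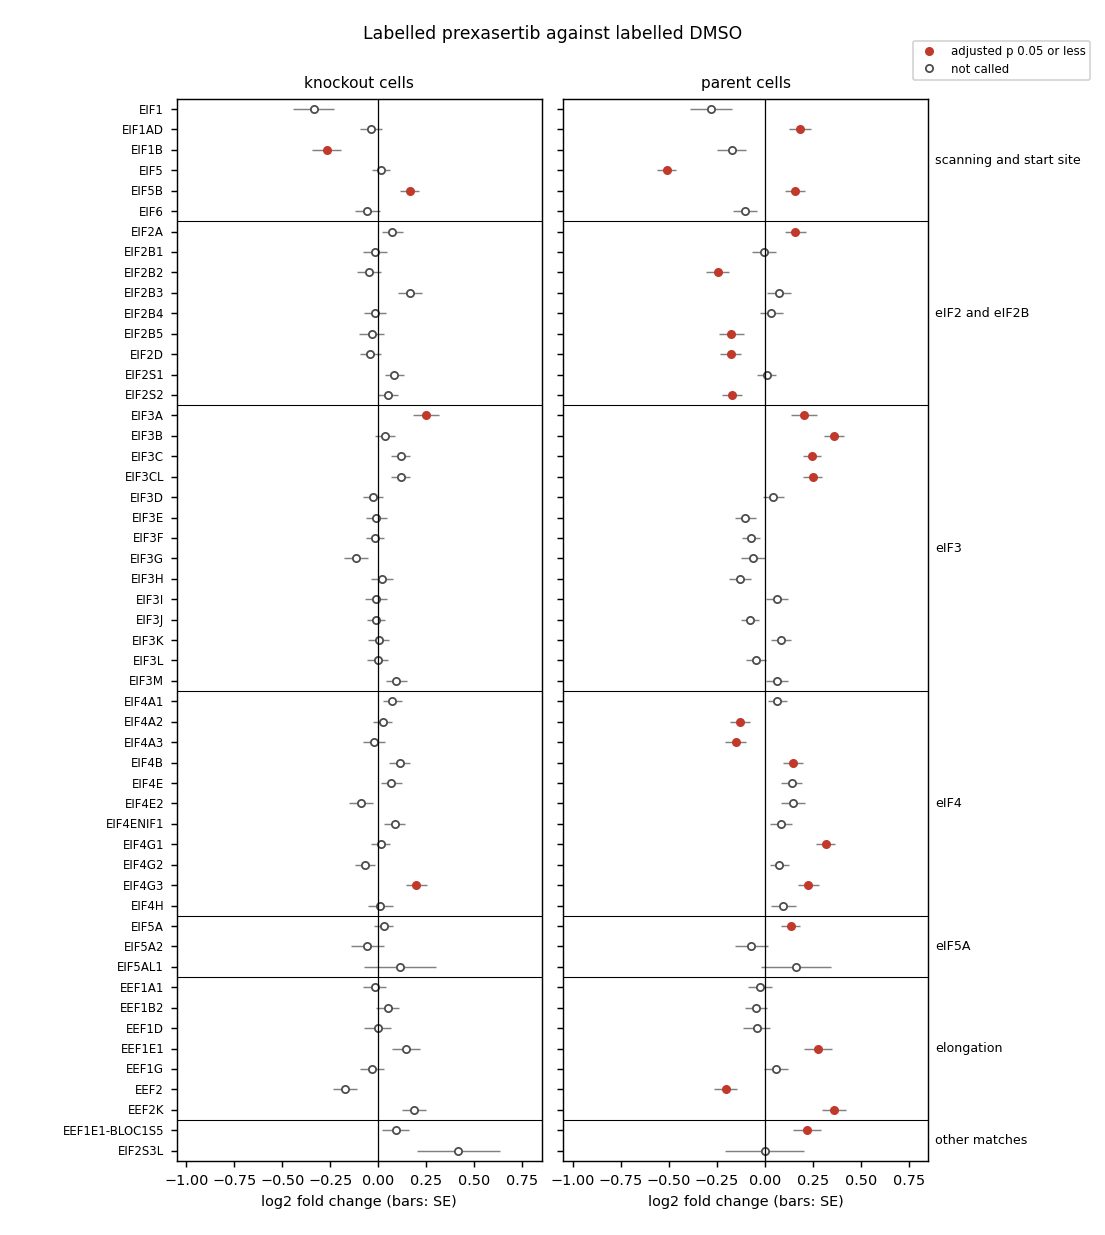
Log2 fold change of labelled prexasertib against labelled DMSO (points, bars are SE) for the 52 members by role, in knockout cells (left) and parent cells (right), with filled points at an adjusted p of 0.05 or less. In knockout cells 4 members passed, and in parent cells 22 did, from EIF5 at -0.51 to EEF2K and EIF3B at 0.36, with EIF4A2 at -0.13 changing sign on the TPM scale.

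Knockout and parent cells were also compared under each label. Under labelled prexasertib 18 members were higher and 7 lower in knockout cells, 48.1% of the 52, where 28.1% of all genes were called. Under labelled DMSO 22 were higher and 12 lower, 65.4% of the 52, where 40% of all genes were called. The 22 again include both pairs that share reads, EIF3C with EIF3CL and EEF1E1 with EEF1E1-BLOC1S5. Of all genes 14.5% were called higher and 13.5% lower in knockout cells under labelled prexasertib, and 19.6% and 20.4% under labelled DMSO. The groups did not overlap for 28 members under labelled prexasertib, against 38.1% of all genes, and for 40 under labelled DMSO, against 53.6% of all genes. Again no member differed 2-fold, where 1195 of the 23045 genes under labelled prexasertib and 1629 of the 23045 under labelled DMSO were called and did. The median size of the log2 fold change was 0.15 and 0.18, against 0.21 and 0.28 over all genes. Read depth was not matched for these sizes or for the shares called. These 2 comparisons share no library with each other, but each shares a group with both comparisons by treatment, so values are set side by side below and no agreement is read from them.

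Of the 52 members, 14 were higher and 5 lower in knockout cells under both labels (26.9% and 9.62%, against 9.53% and 7.63% of all genes), and 10 were called in none of the 5 comparisons (19.2%, against 41.2% of all genes). Read depth was not matched for these shares. The split depended on scale. On the authors' TPM scale it was 33 higher and 0 lower under labelled prexasertib and 39 and 0 under labelled DMSO, and with centred TPM it was 14 and 14, and 17 and 15. Relative to exonic counts, the TPM scale moved the median of all genes by 0.098 under labelled prexasertib and 0.16 under labelled DMSO, and centred TPM moved it by -0.095 and -0.17. Of the 12 members lower under labelled DMSO, 8 had a positive sign on the TPM scale, namely EEF2, EIF2B2, EIF3F, EIF3H, EIF3L, EIF4A2, EIF4G3 and EIF5B, as did EIF3F among the 7 lower under labelled prexasertib. No called member changed sign with centred TPM. The shares of all genes called on the TPM scales are not given, so the splits there are not read as results about the members. Without parent replicate 1 labelled prexasertib, 12 members in place of 7 were lower under that label, where 27.3% of genes were called.

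**Figure D3:**
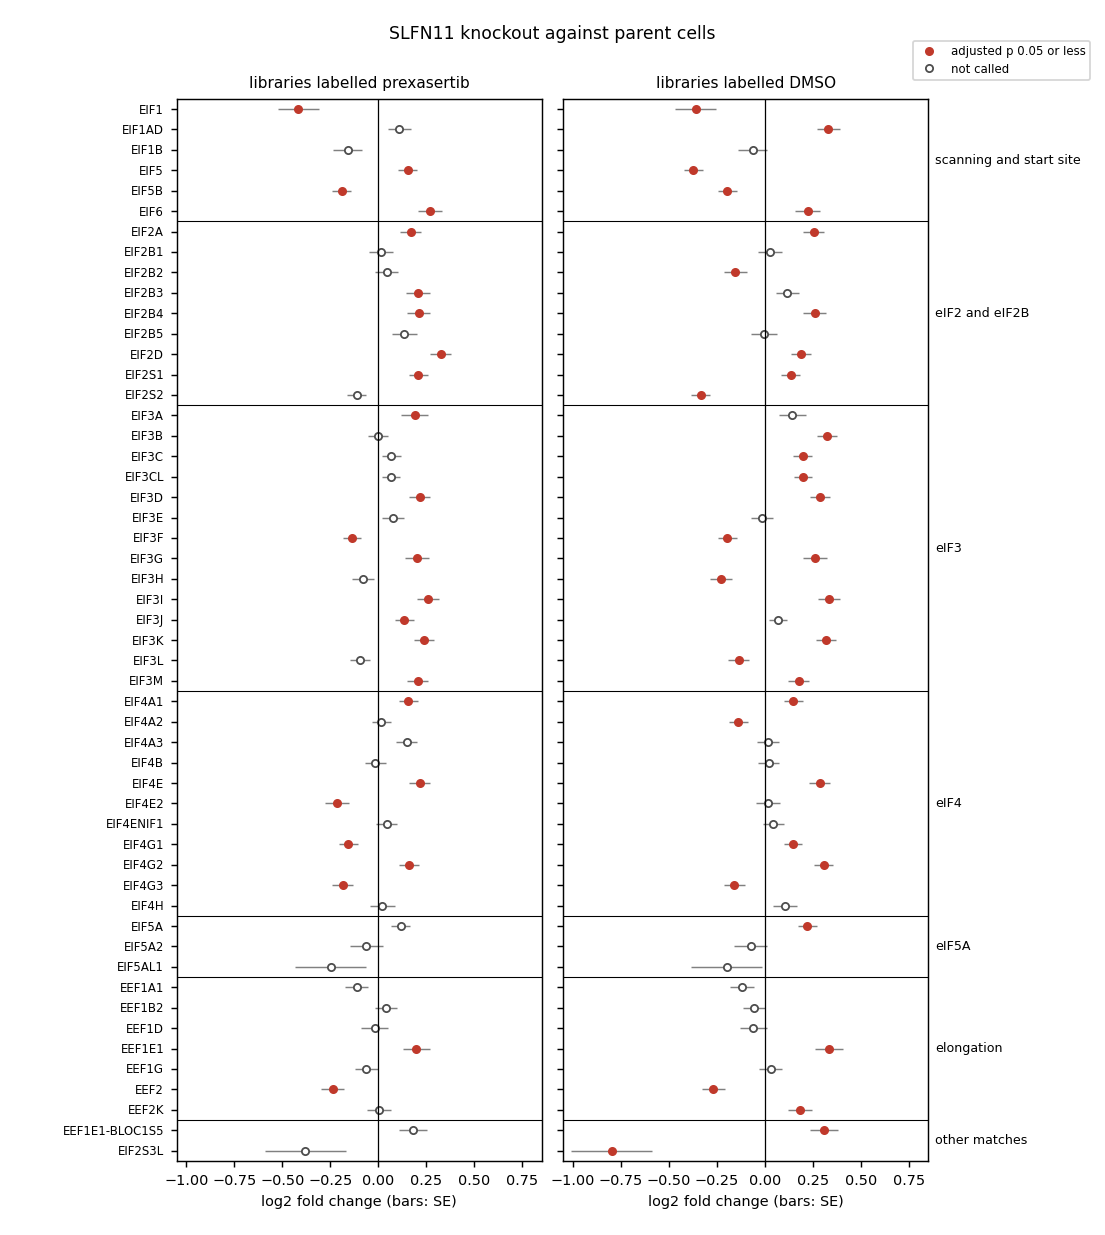
Log2 fold change of knockout against parent cells (points, bars are SE) for the 52 members by role, under labelled prexasertib (left) and labelled DMSO (right), with filled points at an adjusted p of 0.05 or less. EIF5 lies at 0.15 and -0.37 and EIF4G1 at -0.16 and 0.15, while EIF1 is at -0.42 and -0.36, and under labelled DMSO 8 of the 12 lower members change sign on the TPM scale.

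The difference by treatment was not the same in the 2 lines for 4 of the 52 members by the interaction test (7.69%, where 16.8% of all genes were called, 9.53% positive and 7.32% negative). The difference, the log2 fold change in knockout cells minus that in parent cells, was positive for EIF5 and EIF2S2 and negative for EIF3B and EIF4G1. On the authors' TPM scale the split was 1 positive and 10 negative, and with centred TPM 2 and 3, given without the shares over all genes and not read as results about the members. Without parent replicate 1 labelled prexasertib it was 4 and 7, where 21.3% of all genes were called.

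Among the factors of scanning and start site selection, EIF5 stood out. It encodes eIF5, which activates GTP hydrolysis by eIF2 at the start codon, and lies on chromosome 14 at 103799881 to 103811362 in hg19. EIF5 had 240.8, 245.9 and 258.0 CPM in knockout libraries labelled prexasertib and 252.5, 244.1 and 241.4 CPM in those labelled DMSO. It had 214.9, 229.3 and 226.2 CPM in parent libraries labelled prexasertib and 328.6, 310.9 and 316.4 CPM in those labelled DMSO. The parent libraries labelled DMSO stood above every other library, and the other 3 groups lay close together.

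EIF5 fell by 0.51 on the log2 scale in parent cells labelled prexasertib (SE 0.049, edgeR adjusted p = 4.2e-09), where its value in knockout cells was 0.01 (SE 0.049, edgeR adjusted p = 0.92). The difference between these responses was 0.52 (SE 0.069, edgeR adjusted p = 4.1e-06). In knockout against parent cells EIF5 was 0.15 higher under labelled prexasertib (edgeR adjusted p = 0.021) and fell by 0.37 under labelled DMSO (edgeR adjusted p = 6.7e-07). On the TPM scale that last value was -0.09 and was not called (limma adjusted p = 0.20).

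The CPM values by library of EIF5 and of 5 further members named below are plotted together.

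**Figure D4:**
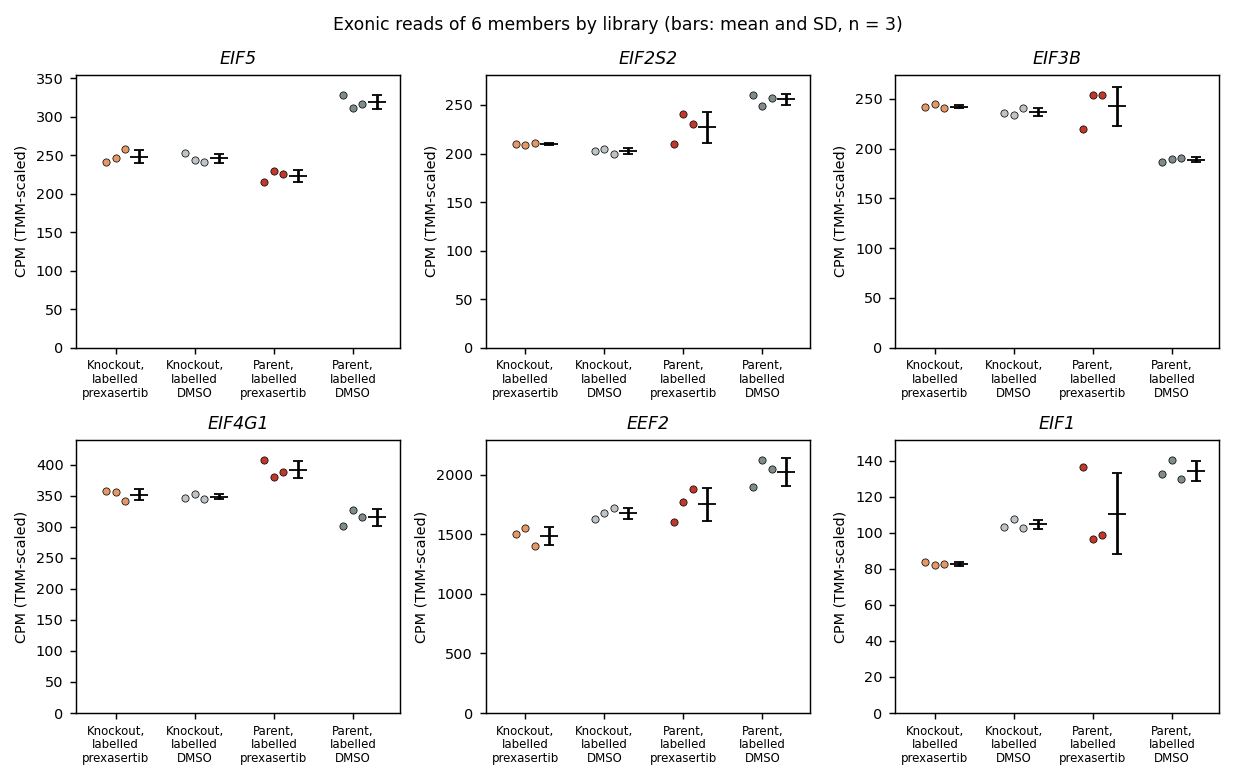
TMM-scaled CPM of exonic reads of 6 members in each of the 12 libraries (points), with the mean and SD of each group of 3 beside them, on axes that start at 0. EIF5 is high only in the parent libraries labelled DMSO, EIF3B and EIF4G1 are low there, and EIF1 has 1 parent library labelled prexasertib at 136.4 CPM against 96.4 and 98.6 in the other two.

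EIF1 encodes the factor that keeps scanning ribosomes from starting at wrong codons, and EIF1B a close paralog. EIF1 averaged 82.8 ± 0.981 CPM in knockout libraries labelled prexasertib and 105 ± 2.69 CPM in those labelled DMSO, against 110.5 ± 22.5 CPM in parent libraries labelled prexasertib (136.4, 96.38 and 98.60) and 134 ± 5.38 CPM in those labelled DMSO (SD, n = 3 each). The knockout libraries lay below the parent libraries of the same label without overlap, by 0.42 under labelled prexasertib (log2 fold change -0.42, SE 0.108, edgeR adjusted p = 0.014) and by 0.36 under labelled DMSO (log2 fold change -0.36, SE 0.107, edgeR adjusted p = 0.020). Both calls are lost on the TPM scale, where the values were -0.24 and -0.08. Treatment gave -0.34 in knockout cells (edgeR adjusted p = 0.069) and -0.28 in parent cells (edgeR adjusted p = 0.064). Parent replicate 1 labelled prexasertib moved these values. Without it, treatment in parent cells gave -0.49 (SE 0.042, edgeR adjusted p = 2.2e-11), knockout against parent cells under labelled prexasertib -0.23 (edgeR adjusted p = 6.1e-05), and the interaction 0.15 (edgeR adjusted p = 0.047) in place of -0.06 (edgeR adjusted p = 0.86). With all libraries put back, the call between the lines under labelled prexasertib was lost without knockout replicate 2 (edgeR adjusted p = 0.072) or 3 (edgeR adjusted p = 0.076) of that label, and the call under labelled DMSO was lost without any 1 of 4 libraries, parent replicate 1 or 2 or knockout replicate 1 or 2 of that label (edgeR adjusted p between 0.051 and 0.088). EIF1 lies within the span listed for JUP and has no exon base of its own in the files.

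EIF1B was the 1 member lower in labelled prexasertib in knockout cells, at 11.25, 12.01 and 11.02 CPM against 13.3, 13.5 and 14.6 CPM in labelled DMSO. Its groups did not overlap, and the log2 fold change was -0.27 (SE 0.075, edgeR adjusted p = 0.017), against -0.17 in parent cells (edgeR adjusted p = 0.073). EIF5B, which joins the ribosomal subunits, was higher in labelled prexasertib in both lines, by 0.16 in knockout (edgeR adjusted p = 0.034) and 0.16 in parent cells (edgeR adjusted p = 0.016). Knockout cells had less EIF5B than parent cells, by -0.19 under labelled prexasertib and -0.20 under labelled DMSO, but the second was 0.08 on the TPM scale and neither was called there. EIF6, which holds large subunits apart from small ones, was higher in knockout cells, by 0.27 under labelled prexasertib and 0.22 under labelled DMSO. EIF1AD, a gene with a domain like that of eIF1A, was 0.18 higher in labelled prexasertib in parent cells (edgeR adjusted p = 0.017) and 0.33 higher in knockout than in parent cells under labelled DMSO (edgeR adjusted p = 5.6e-05).

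The group of eIF2 and its exchange factor eIF2B held 9 genes, among them EIF2A and EIF2D, which encode subunits of neither and count in every share below. These genes moved little in knockout cells, where edgeR and DESeq2 each called 0 of 9 and 1 of 9 had an unadjusted edgeR p under 0.05. In parent cells 4 of the 9 were lower in labelled prexasertib and 1 was higher, but on the TPM scale 4 were higher and 0 lower. The share of all genes called on the TPM scale is not given, so that split is not read as a result about these genes. By edgeR 55.6% of the 9 were thus called in parent cells, where 36.3% of all genes were. In knockout cells 12.9% of all genes were called. EIF2B2 and EIF2B5 encode the beta and epsilon subunits of eIF2B. EIF2B2 had 32.4, 36.3 and 34.7 CPM in parent libraries labelled prexasertib, against 40.4, 41.3 and 40.9 CPM in those labelled DMSO, without overlap (log2 fold change -0.25, edgeR adjusted p = 0.0022). EIF2B5, the catalytic subunit, had 54.6, 68.9 and 69.4 CPM, against 70.05, 72.1 and 75.8 CPM (log2 fold change -0.18, edgeR adjusted p = 0.040). Without the first of these libraries the value was -0.10 (edgeR adjusted p = 0.092). The same direction was called for EIF2D, an initiator tRNA factor outside eIF2, at -0.18 (edgeR adjusted p = 0.011), and the opposite for EIF2A, another such factor, at 0.16 (edgeR adjusted p = 0.020).

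EIF2S2 encodes the beta subunit of eIF2 and lies on chromosome 20 at 32676104 to 32700138 in hg19. It had 209.9, 209.0 and 210.8 CPM in knockout libraries labelled prexasertib and 203.1, 205.0 and 199.6 CPM in those labelled DMSO. It had 209.7, 240.8 and 230.4 CPM in parent libraries labelled prexasertib and 260.5, 249.0 and 257.6 CPM in those labelled DMSO. Every parent library labelled DMSO exceeded every library of the other 3 groups.

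EIF2S2 fell by 0.17 in parent cells labelled prexasertib (SE 0.051, edgeR adjusted p = 0.0090) and stood at 0.05 in knockout cells (edgeR adjusted p = 0.61). The difference was 0.22 (SE 0.072, edgeR adjusted p = 0.032). That call was lost without knockout replicate 1 labelled prexasertib (adjusted p = 0.081), without knockout replicate 3 labelled DMSO (0.10) or parent replicate 3 labelled DMSO (0.091), and on the TPM scale (0.42). In knockout against parent cells it was -0.11 under labelled prexasertib (edgeR adjusted p = 0.10, or -0.16 and called at 0.00070 without parent replicate 1) and -0.34 under labelled DMSO (edgeR adjusted p = 6.0e-06), which was -0.06 and not called on the TPM scale. Only 11.1% of its reads fell outside other listed genes, chiefly RALY, whose span overlaps it, so the values may hold reads of that gene.

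Knockout cells had more RNA of 5 of the 9 genes of this group under labelled prexasertib and of 4 under labelled DMSO, where EIF2S2 and EIF2B2 were lower (EIF2B2 at -0.16, edgeR adjusted p = 0.043, and 0.12 on the TPM scale). Called either way were 55.6% and 66.7% of the 9, where 28.1% and 40% of all genes were called. EIF2D had 36.2, 36.3 and 35.9 CPM in knockout libraries labelled prexasertib, against 29.2, 29.3 and 28.1 CPM in parent libraries, and 37.3, 36.4 and 38.0 CPM against 32.6, 31.4 and 34.0 CPM under labelled DMSO. The lines did not overlap under either label, and the log2 fold changes were 0.32 (edgeR adjusted p = 5.1e-05) and 0.19 (edgeR adjusted p = 0.0061). EIF2A, EIF2B4 (the delta subunit of eIF2B) and EIF2S1 (the alpha subunit of eIF2, which the stress kinases phosphorylate) were also higher in knockout cells under both labels, by 0.13 to 0.26. EIF2B3, the gamma subunit of eIF2B, was higher in knockout cells under labelled prexasertib, at 0.21 (edgeR adjusted p = 0.013). EIF2B1, the alpha subunit, was called in none of the 5 comparisons.

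The 14 genes of eIF3 encode the large scaffold on the small ribosomal subunit. In knockout cells 1 of the 14 was higher in labelled prexasertib and 0 lower, and in parent cells 4 were higher and 0 lower, 28.6% of the 14 where 36.3% of all genes were called. By treatment in knockout cells 7.14% of the 14 were called, against 12.9% of all genes. Knockout cells had 7 higher and 1 lower than parent cells under labelled prexasertib and 8 higher and 3 lower under labelled DMSO. These are 57.1% and 78.6% of the 14, where 28.1% and 40% of all genes were called. EIF3C and its near-identical copy EIF3CL were counted separately. Both were among the higher genes in parent cells by treatment and between the lines under labelled DMSO. On the TPM scale no eIF3 gene was lower in any of these 4 comparisons, while centred TPM gave 4 higher and 2 lower in parent cells, 6 and 3 between the lines under labelled prexasertib, and 7 and 3 under labelled DMSO. Shares of all genes called on these 2 scales are not given, so the splits there are not read as results about eIF3 genes. The interaction was called for 1 of the 14 (7.14%, where 16.8% of all genes were called).

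EIF3B, which encodes a core scaffold subunit, lies on chromosome 7 at 2393721 to 2420380 in hg19. It had 241.5, 244.3 and 240.7 CPM in knockout libraries labelled prexasertib and 235.3, 233.2 and 240.9 CPM in those labelled DMSO. It had 219.9, 254.0 and 253.4 CPM in parent libraries labelled prexasertib and 186.1, 189.8 and 190.6 CPM in those labelled DMSO. The parent libraries labelled DMSO stood below all others.

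EIF3B was 0.36 higher in labelled prexasertib in parent cells (SE 0.053, edgeR adjusted p = 4.1e-06) and 0.03 in knockout cells (edgeR adjusted p = 0.76). The difference of -0.33 (SE 0.074, edgeR adjusted p = 0.0026) was called under every alternative run for it. Between knockout and parent cells the log2 fold change was -0.00 under labelled prexasertib (edgeR adjusted p = 0.99) and 0.32 under labelled DMSO (edgeR adjusted p = 1.5e-05).

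EIF3A, the largest eIF3 subunit, was higher in labelled prexasertib in knockout cells, at 400.0, 404.3 and 412.3 CPM against 339.9, 336.3 and 347.3 CPM in labelled DMSO. The groups did not overlap (log2 fold change 0.25, SE 0.068, edgeR adjusted p = 0.017). In parent cells it had 298.1, 388.9 and 380.8 CPM in labelled prexasertib, against 305.9, 308.8 and 312.2 CPM in labelled DMSO. There 1 library lay below all those labelled DMSO, yet the test passed at 0.20 (edgeR adjusted p = 0.022). In knockout against parent cells under labelled prexasertib EIF3A was 0.19 higher (edgeR adjusted p = 0.043). Without parent replicate 1 of that label this value was 0.080 and not called (edgeR adjusted p = 0.083). EIF3C and its near-identical copy EIF3CL rose together in parent cells, by 0.24 and 0.25, and reads cannot be assigned between them with certainty.

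Several eIF3 genes were called between the lines under both labels and, with all libraries, in neither comparison by treatment. EIF3I had 186.6, 186.9 and 185.2 CPM in knockout libraries labelled prexasertib, against 136.7, 165.7 and 165.3 CPM in parent libraries, and 187.5, 186.3 and 190.7 CPM against 146.8, 151.3 and 150.3 CPM under labelled DMSO. The log2 fold changes were 0.26 (edgeR adjusted p = 0.0013) and 0.33 (edgeR adjusted p = 3.8e-05), with no overlap. EIF3K, a peripheral subunit, gave 0.24 and 0.32, EIF3D, a subunit that can bind caps, 0.21 and 0.29, EIF3G 0.20 and 0.26, and EIF3M 0.21 and 0.18, all called. EIF3F was lower, at -0.14 and -0.20, but its sign was positive on the TPM scale under both labels. EIF3H and EIF3L were lower under labelled DMSO, at -0.23 and -0.14, with a positive sign on the TPM scale. Under labelled prexasertib they were called only without parent replicate 1, at -0.15 and -0.16. Without that library, treatment in parent cells was called for EIF3I at 0.12 (edgeR adjusted p = 0.0076) and EIF3K at 0.11 (edgeR adjusted p = 0.041). The interaction was then called for EIF3I at -0.13 (edgeR adjusted p = 0.049). EIF3J was higher under labelled prexasertib, at 0.14, and EIF3E was called in none of the 5 comparisons.

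Among eIF4 genes, the scaffold gene EIF4G1 had the largest difference by treatment in parent cells and the scaffold gene EIF4G3 in knockout cells. EIF4G1 encodes eIF4GI, which links the cap-binding protein, the helicase and eIF3, and lies on chromosome 3 at 184032283 to 184053146 in hg19. It had 357.2, 355.8 and 341.3 CPM in knockout libraries labelled prexasertib and 346.7, 353.2 and 345.1 CPM in those labelled DMSO. It had 407.2, 379.8 and 388.3 CPM in parent libraries labelled prexasertib and 301.0, 327.1 and 316.3 CPM in those labelled DMSO. Both knockout groups lay between the parent groups.

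EIF4G1 was 0.32 higher in labelled prexasertib in parent cells (SE 0.049, edgeR adjusted p = 1.0e-05) and stood at 0.01 in knockout cells (edgeR adjusted p = 0.92), a difference of -0.30 (SE 0.069, edgeR adjusted p = 0.0028). Knockout against parent cells gave -0.16 under labelled prexasertib (edgeR adjusted p = 0.018, lost on the TPM scale at -0.00) and 0.15 under labelled DMSO (edgeR adjusted p = 0.019). The files list EIF4G1 within the span of EIF2B5, so it has no exon base of its own.

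The other scaffold genes followed other patterns. EIF4G3 was higher in labelled prexasertib in both lines, at 58.1, 61.9 and 59.2 CPM against 53.4, 52.7 and 50.1 CPM in knockout cells (log2 fold change 0.20, edgeR adjusted p = 0.017). In parent cells it had 72.7, 64.3 and 66.7 CPM against 60.0, 55.5 and 59.0 CPM (log2 fold change 0.22, edgeR adjusted p = 0.0021). Neither pair of groups overlapped. EIF4G2, whose protein DAP5 lacks the site for the cap-binding protein, was higher in knockout cells, by 0.16 under labelled prexasertib (edgeR adjusted p = 0.019) and 0.30 under labelled DMSO (edgeR adjusted p = 2.2e-05), and was not called by treatment in either line.

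EIF4E, the cap-binding protein gene, had 140.1, 144.4 and 150.3 CPM in knockout libraries labelled prexasertib, against 115.8, 132.0 and 126.9 CPM in parent libraries, and 137.5, 136.5 and 140.8 CPM against 121.2, 107.5 and 111.7 CPM under labelled DMSO. The lines did not overlap, at 0.21 (edgeR adjusted p = 0.0044) and 0.29 (edgeR adjusted p = 0.00015). Its repressive paralog EIF4E2 was lower in knockout cells under labelled prexasertib, at -0.22 (edgeR adjusted p = 0.011; -0.06 and not called on the TPM scale), and stood at 0.02 under labelled DMSO. The helicase gene EIF4A1 was higher in knockout cells, by 0.16 and 0.15. Its paralog EIF4A2 gave 0.02 and -0.14, of which the second passed (edgeR adjusted p = 0.031) but was 0.14 on the TPM scale. EIF4A3, the paralog of the exon junction complex, was lower in labelled prexasertib in parent cells by -0.15 (edgeR adjusted p = 0.035), and EIF4B, the helicase cofactor gene, was higher by 0.15 (edgeR adjusted p = 0.037). EIF4H, another cofactor gene, and EIF4ENIF1, which encodes a transporter of eIF4E, were called in no comparison when all libraries were used. Without parent replicate 1 labelled prexasertib, treatment in parent cells was called for EIF4E at 0.16, EIF4E2 at 0.19, EIF4H at 0.17 and EIF4A1 at 0.08. The interaction was then called for EIF4H at -0.16, EIF4E2 at -0.28 and EIF4A2 at 0.15.

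EIF5A encodes the factor that helps the ribosome through slow peptide bonds and carries the modified residue hypusine. It was called higher in parent cells labelled prexasertib, at 0.13 (edgeR adjusted p = 0.041), and stood at 0.03 in knockout cells. Knockout cells had 0.12 more under labelled prexasertib (edgeR adjusted p = 0.090) and 0.22 more under labelled DMSO (edgeR adjusted p = 0.00088). EIF5A2 and EIF5AL1 were called in none of the 5 comparisons.

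Of the 7 elongation genes, EEF2 and its kinase moved in opposite directions in parent cells. EEF2 lies on chromosome 19 at 3976054 to 3985467 in hg19 and had 1501, 1550 and 1404 CPM in knockout libraries labelled prexasertib and 1628, 1679 and 1718 CPM in those labelled DMSO. It had 1606, 1770 and 1880 CPM in parent libraries labelled prexasertib and 1894, 2121 and 2043 CPM in those labelled DMSO. Within each line the groups did not overlap, and all values labelled prexasertib were the lower ones.

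For EEF2 the log2 fold change by treatment was -0.17 in knockout cells (SE 0.060, edgeR adjusted p = 0.059) and -0.21 in parent cells (SE 0.060, edgeR adjusted p = 0.0087), which was -0.06 and not called on the TPM scale. Knockout cells had less EEF2 than parent cells, by -0.24 under labelled prexasertib (edgeR adjusted p = 0.0039) and -0.27 under labelled DMSO (edgeR adjusted p = 0.00072), but on the TPM scale these values were -0.08 and 0.01 and neither was called. EEF2K had 32.4, 30.1 and 28.3 CPM in knockout libraries labelled prexasertib, against 27.7, 25.5 and 26.6 CPM in those labelled DMSO, and 29.7, 30.1 and 30.7 CPM against 23.8, 24.4 and 22.1 CPM in parent libraries. The groups did not overlap in either line. Its log2 fold change was 0.18 in knockout (edgeR adjusted p = 0.0502) and 0.36 in parent cells (edgeR adjusted p = 4.4e-05).

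EEF1A1 was called in none of the 5 comparisons, at 8358, 8201 and 8432 CPM in knockout libraries labelled prexasertib, 8490, 8312 and 8527 CPM in those labelled DMSO, 7979, 9486 and 9565 CPM in parent libraries labelled prexasertib and 9137, 9041 and 9352 CPM in those labelled DMSO. The low value belongs to parent replicate 1, and without it knockout against parent cells under labelled prexasertib gave -0.19 (edgeR adjusted p = 8.6e-06). EEF1E1, which encodes a scaffold of the multi-tRNA synthetase complex, was higher in parent cells labelled prexasertib by 0.28 (edgeR adjusted p = 0.0036) and higher in knockout cells by 0.20 under labelled prexasertib and 0.33 under labelled DMSO. Without parent replicate 1 labelled prexasertib the value of 0.20 became 0.18 and was not called (edgeR adjusted p = 0.073). Only 1.29% of its reads fall outside a read-through gene with BLOC1S5. The exchange factor genes EEF1B2, EEF1D and EEF1G were called in no comparison when all libraries were used. Without parent replicate 1 labelled prexasertib, EEF1G was called by treatment in parent cells at 0.11 (edgeR adjusted p = 0.012). It was then also called between the lines under labelled prexasertib at -0.14 (edgeR adjusted p = 0.0031) and in the interaction at -0.14 (edgeR adjusted p = 0.030).

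EIF2S3L, a close copy of the X-linked gene of the gamma subunit of eIF2, had 1.47, 1.32 and 1.36 CPM in knockout libraries labelled prexasertib and 1.0195, 1.0362 and 1.0588 CPM in those labelled DMSO. In parent libraries it had 1.95, 2.21 and 1.21 CPM when labelled prexasertib and 1.71, 2.21 and 1.47 CPM when labelled DMSO. The lines did not overlap under labelled DMSO (log2 fold change -0.80, SE 0.21, edgeR adjusted p = 0.0033). Reads cannot be divided with certainty between a copy and its source gene, so this value is uncertain.

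Intronic reads, which come largely from unspliced RNA, were tested separately for 51 members among 19852 genes. In knockout cells 2 members were higher and 4 lower in labelled prexasertib, where 12% of all genes were called (5.83% higher and 6.15% lower). In parent cells 9 were higher and 7 lower, where 30.8% of all genes were called. Knockout against parent cells gave 2 higher and 4 lower under labelled prexasertib, where 18.8% of all genes were called (9.62% higher and 9.16% lower). Under labelled DMSO it gave 10 and 5, where 30.3% of all genes were called. The interaction, with 9.84% of all genes called (5.82% positive and 4.02% negative), gave 0 positive and 4 negative members, which were EEF1G at -0.46, EIF1AD at -0.64, EIF2B3 at -0.36 and EIF4G3 at -0.39.

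Exonic and intronic calls were also set side by side, for the 51 members and for 17090 genes tested in both. In parent cells 10 members were called in both kinds of read in the same direction (19.6%, against 19.8% of all these genes) and 0 in opposite directions (1.18% of genes). Calls in exonic reads alone numbered 12 (23.5%, against 22.5% of genes) and in intronic reads alone 6 (11.8%, against 12.3%). Those called in both included EEF2K at 0.36 in exonic and 0.52 in intronic reads and EIF4A3 at -0.15 and -0.66. In knockout cells 0 members were called in both, against 5.72% of genes in the same direction. There 4 were called in exonic reads alone (7.84%, against 9.81% of genes) and 6 in intronic reads alone (11.8%, against 7.54%). Between the lines under labelled prexasertib 2 members were called the same way (11.6% of genes) and 2 in opposite ways (0.48% of genes). Under labelled DMSO 6 were called the same way (19.5% of genes), among them EIF3C and its copy EIF3CL, and 3 in opposite ways (1.59% of genes). In exonic reads alone 21 were called under labelled prexasertib (41.2%, against 21.1% of genes) and 25 under labelled DMSO (49%, against 25.8%). In intronic reads alone 2 (3.92%, against 8.05%) and 6 (11.8%, against 10.7%) were called. Read depth was not matched for these shares.

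EIF5 was one of the opposite cases, with -0.37 in exonic and 0.36 in intronic reads (edgeR adjusted p = 0.0025) in knockout against parent cells under labelled DMSO. The others there were EIF4A1, at 0.15 and -0.38, and EIF4E, at 0.29 and -0.19. Under labelled prexasertib they were EIF2B3, at 0.21 and -0.22, and EIF4G1, at -0.16 and 0.31. The intronic value of EIF5 by treatment was -0.32 in knockout cells (edgeR adjusted p = 0.016) and -0.17 in parent cells (edgeR adjusted p = 0.14), where its exonic values were 0.01 and -0.51. Introns of a listed gene can hold exons of other genes, and strand was not known, so intronic reads may belong to neighbours.

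**Figure D5:**
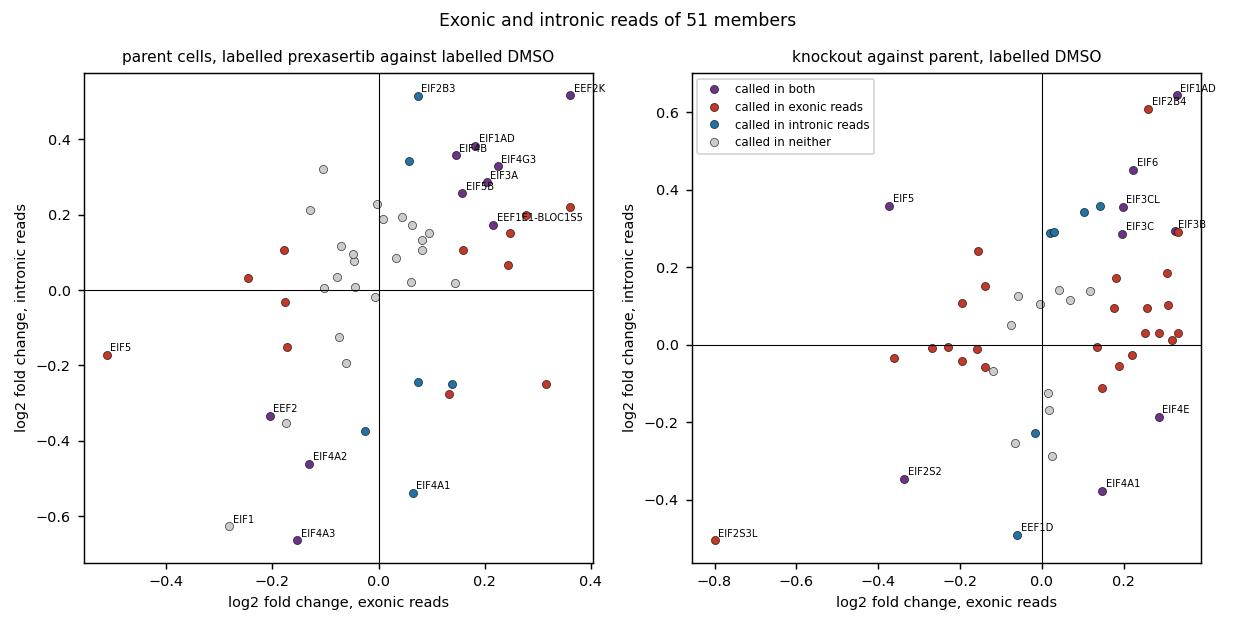
Log2 fold change in exonic reads (horizontal axis) against that in intronic reads (vertical axis) for 51 members, for labelled prexasertib against labelled DMSO in parent cells (left) and for knockout against parent cells under labelled DMSO (right), coloured by which test called the member. The 10 members called in both tests on the left share a sign, whereas on the right 6 share a sign and EIF4A1, EIF4E and EIF5 do not.

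The 10 members with a TOP start, printed above, were more abundant than the 33 without, with a median of 68.6 TPM against 26.1 TPM. By treatment, edgeR called 0 of the 10 in knockout cells (1 by DESeq2, and 1 at an unadjusted edgeR p under 0.05), against 2 higher and 1 lower of the 33. In parent cells 2 were higher and 3 lower (EEF2, EIF2D and EIF4A2) of the 10, against 10 and 4 of the 33. Between the lines the 10 had 5 higher and 2 lower under labelled prexasertib and 5 and 3 under labelled DMSO, against 11 and 5, and 15 and 5, of the 33. Of all genes, 12.9% were called by treatment in knockout cells and 36.3% in parent cells. Between the lines 28.1% were called under labelled prexasertib and 40% under labelled DMSO. The difference between the sets was not tested.

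The ribosomal proteins are the main partners of these factors. Of 80 genes of cytosolic ribosomal proteins, 0 were higher and 1 lower in knockout cells labelled prexasertib, and 6 higher and 1 lower in parent cells. Knockout against parent cells gave 5 higher and 16 lower under labelled prexasertib and 8 and 12 under labelled DMSO. By treatment in knockout cells 1 of the 80 was thus called, where 12.9% of all genes were called. In parent cells 8.75% of the 80 were called, against 36.3% of all genes. Between the lines 26.25% of the 80 were called under labelled prexasertib and 25% under labelled DMSO, against 28.1% and 40% of all genes. None of these shares exceeded that of all genes, and read depth was not matched. RPL6 rose by 0.22 and RPS15 by 0.24 in parent cells labelled prexasertib, and FAU, which encodes a fusion of a ubiquitin-like protein with a small subunit protein, was 0.46 higher in knockout cells under labelled DMSO. RPLP1 of the stalk was lower in knockout cells by -0.29 under labelled prexasertib and -0.24 under labelled DMSO, where the TPM scale gave 0.04.

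Some genes that act on eIF2 or downstream of it differed by more than any of the 52 members. Of 12 genes of eIF2 kinases, their phosphatase and downstream stress genes, 3 were higher and 1 lower in labelled prexasertib in knockout cells, and 5 and 5 in parent cells. Knockout against parent cells gave 0 and 2 under labelled prexasertib and 3 and 6 under labelled DMSO. In the order given, 33.3%, 83.3%, 16.7% and 75% of the 12 were called, against 12.9%, 36.3%, 28.1% and 40% of all genes. DDIT3, which encodes the stress transcription factor CHOP, had 16.2, 15.8 and 14.4 CPM in knockout libraries labelled prexasertib and 14.6, 14.4 and 14.8 CPM in those labelled DMSO. It had 17.3, 17.6 and 16.7 CPM in parent libraries labelled prexasertib and 46.4, 46.6 and 48.3 CPM in those labelled DMSO, which alone were high. Its log2 fold change was 0.08 in knockout (edgeR adjusted p = 0.46) and -1.45 in parent cells (edgeR adjusted p = 4.1e-16).

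The phosphatase subunit gene PPP1R15A, which restores eIF2, was lower in labelled prexasertib in both lines, at 16.2, 17.5 and 14.7 CPM against 48.5, 51.1 and 47.2 CPM in knockout cells and 32.6, 36.4 and 37.2 CPM against 81.1, 91.0 and 88.5 CPM in parent cells. The groups were far apart, and the log2 fold changes were -1.60 (edgeR adjusted p = 3.9e-15) and -1.30 (edgeR adjusted p = 1.4e-14). EIF2AK3, the gene of the kinase PERK, was 0.20 higher in knockout (edgeR adjusted p = 0.032) and fell by 0.66 in parent cells (edgeR adjusted p = 2.3e-09). ATF4, whose translation increases when eIF2 is phosphorylated, was -0.16 in knockout (edgeR adjusted p = 0.090) and fell by 0.27 in parent cells (edgeR adjusted p = 0.00068; -0.13 and not called on the TPM scale). In the interaction the eIF2 subunit genes EIF2S1 and EIF2S2 gave 0.07 and 0.22, where DDIT3 gave 1.54.

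Of 18 genes of mTOR and cap control, 0 were higher and 1 lower in labelled prexasertib in knockout cells and 4 and 3 in parent cells. Knockout against parent cells gave 2 and 6 under labelled prexasertib and 1 and 2 under labelled DMSO. In the order given, 5.56%, 38.9%, 44.4% and 16.7% of the 18 were called, against 12.9%, 36.3%, 28.1% and 40% of all genes. EIF4EBP2, which encodes a repressor that binds eIF4E, was 0.58 higher in parent cells labelled prexasertib (edgeR adjusted p = 1.3e-05) and stood at 0.24 in knockout cells (edgeR adjusted p = 0.054). EIF4EBP1 was 0.29 higher in parent cells (edgeR adjusted p = 0.0015) and stood at 0.05 in knockout cells. RPS6KB1, the gene of the S6 kinase that acts on EIF4B and EEF2K, fell by 0.33 in parent cells (edgeR adjusted p = 3.6e-05) and stood at 0.07 in knockout cells.

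Of 11 genes of termination, ribosome recycling and poly(A) binding, edgeR called 0 in knockout cells (2 by DESeq2, and 2 at an unadjusted edgeR p under 0.05), and 2 were higher and 2 lower in parent cells. Knockout against parent cells gave 7 and 1 under labelled prexasertib and 4 and 0 under labelled DMSO. In the order given, 0%, 36.4%, 72.7% and 36.4% of the 11 were called by edgeR, against 12.9%, 36.3%, 28.1% and 40% of all genes. ABCE1, which splits ribosomes after termination and binds eIF3, was higher in knockout cells, by 0.25 under labelled prexasertib and 0.48 under labelled DMSO. Of 9 genes of the hypusine and diphthamide modifications of eIF5A and eEF2, 0 were higher and 1 lower in knockout cells, and 1 and 3 in parent cells. Knockout cells had 2 higher and 0 lower under labelled prexasertib and 2 and 2 under labelled DMSO. In the order given, 11.1%, 44.4%, 22.2% and 44.4% of the 9 were called, beside the same shares over all genes. DPH5, a methyltransferase of diphthamide synthesis, was higher by 0.67 under labelled prexasertib (edgeR adjusted p = 6.1e-08) and 0.41 under labelled DMSO (edgeR adjusted p = 3.6e-05).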

How the data were processed

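Per the labels' protocols, total RNA was taken up in TRIzol, purified on columns with DNase, and sequenced as pooled libraries on a single paired-end HiSeq4000 run. The build was hg19, and STAR 2.5.4a, Picard 2.9.2, Trimmomatic 0.39 and Trim Galore 0.6.2 were named without roles, per the submitters' processing notes. The counter, annotation and strand setting are not given in the sources used here. Per the file headers, each deposited file gives exonic and intronic read counts per gene, counts outside other genes, and TPM, all computed by the authors. Large counts hold 6 digits. Of values from 1 to 40 reads 73.7% were even, so mates were probably counted singly, and counting precision is lower than read totals imply. Genes absent from a file were taken as 0. Coordinates are the files' with 1 added.

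The members and lists were chosen with earlier results of these data known. Exonic counts of 23045 genes kept by filterByExpr (minimum 10) were modelled with edgeR 4.0.16 (R 4.3.3), using TMM factors, 1 model of 4 group means, robust quasi-likelihood F tests and Benjamini-Hochberg adjustment at 0.05. Intronic counts of 19852 genes were tested likewise. The interaction is the knockout response minus the parent response. TPM was tested as log2(TPM + 1) with limma 3.58.1, where fold changes of low genes are understated, and again centred on genes of at least 10 TPM, an alternative chosen after seeing the data. DESeq2 1.42.0 was another alternative. Named genes were, per comparison, the 6 most changed called members each way, the 5 most abundant members, the smallest p of each role group, paralog sets, and the 2 smallest p of each pathway list. No libraries of a group were duplicates, with chi-square values of 4.52 to 37.5 per degree of freedom between them. Exact permutation tests compared summed shares. The edgeR script was tested on simulated data.

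No unique exon base was listed for 7 members, and 15 had most of their reads inside other genes as well, so their counts can include neighbours. Per-library read counts cover counting error only.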

Additional observations from a re-analysis of the deposited data

Results flagged for a closer look

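Each value here is the log2 fold change by treatment in knockout cells minus that in parent cells, called by edgeR's interaction test, and each was flagged because the 2 lines differed. Among the members these were EIF5 at 0.52, EIF2S2 at 0.22, EIF3B at -0.33 and EIF4G1 at -0.30. EIF5, EIF3B and EIF4G1 were called under every alternative run for them, and EIF2S2 was not, as given above.

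Among the eIF2 control genes, DDIT3 gave 1.54, EIF2AK3 0.86, TRIB3 (a stress pseudokinase gene) 0.43 and PPP1R15A -0.31. Among the genes of mTOR and cap control, RPS6KB1 gave 0.40, EIF4EBP2 -0.34, RPTOR (an mTOR complex subunit gene) -0.30 and TSC2 (an mTOR inhibitor gene) -0.39. Of the other lists, the ribosome recycling gene ABCE1 gave -0.23 and the ribosomal protein gene RPS15 gave -0.30. Of 12 fits that each leave out 1 library, the call was lost in 9 for EIF4EBP2, 9 for ABCE1, 8 for RPTOR, 7 for PPP1R15A, 3 for EIF2S2 and 1 for RPS15, and in 0 for the others. The call of RPTOR was lost without parent replicate 1 labelled prexasertib, at -0.18 (edgeR adjusted p = 0.072). If the library names in the titles hold in place of the record labels, each of these signs is reversed. With 3 libraries a group, single libraries were not tested as outliers.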

How the results depend on the processing

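For 148 called pairs of a named gene and a comparison, most of them chosen for large changes or small p, 1853 values under the alternatives kept direction and call, 268 kept direction but lost the call, and 8 changed sign. All 148 kept both with DESeq2. The sign changes were all on the authors' TPM scale, for EIF4A2 in parent cells (0.012) and, for knockout against parent cells under labelled DMSO, for EEF2 (0.0105), EIF2B2 (0.12), EIF3H (0.047), EIF4A2 (0.14), EIF4G3 (0.11), EIF5B (0.075) and RPLP1 (0.036). On that scale the members' median was 0.16 in parent cells, 0.32 between the lines under labelled DMSO and 0.21 under labelled prexasertib, and -0.12 for the interaction. The log2 ratio of their summed share was 0.13 in parent cells, and 0.13 and 0.25 between the lines under labelled prexasertib and DMSO. Counts higher and lower were then 1 and 1 in knockout cells, 28 and 1 in parent cells, 33 and 0, and 39 and 0, between the lines, and 1 and 10 for the interaction. Centred TPM gave 1 and 2 in knockout cells, 14 lower under labelled prexasertib, and a median of -0.0075 under labelled DMSO. Members higher in parent cells numbered 9 with no filter on low counts, 9 with reads outside other genes and 7 when fitted with the groups compared alone, which gave 5 lower. Reads outside other genes gave a median of 0.0018 there. In knockout cells DESeq2 gave 5 higher and 3 lower, no filter 3 lower, reads outside other genes 5 and 2, and the compared groups alone 8 and 4. Lower members under labelled prexasertib numbered 4 with reads outside other genes and 3 with the compared groups alone. The cause of these shifts was not tested. The shares of all genes called are not given beside these counts or those below, so the counts are not read as results about the members.

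Leaving out 1 library at a time gave 5 to 21 members higher and 4 to 11 lower in parent cells (median -0.0076 to 0.061, share ratio 0.039 to 0.10). It gave 0 to 3 and 0 to 2 in knockout cells, 4 to 12 lower between the lines under labelled prexasertib (share ratio -0.058 to 0.0073), and 1 to 4 and 2 to 7 for the interaction. Intronic reads gave 6 to 16 and 4 to 8 in parent cells, 0 to 1 and 2 to 3 in knockout cells, 3 to 5 lower under labelled DMSO, 1 to 2 and 1 to 8 under labelled prexasertib, and 0 to 2 and 1 to 10 for the interaction. Deviations of same-numbered libraries from their group means had correlations of -0.12 to 0.17. With 3 libraries a group this cannot show whether the numbers pair the samples, and the main fit used no pairing. With the replicate number as a block, 2 members were lower in knockout cells, 1 was higher for intronic reads in the interaction, and EIF4A2 in parent cells (adjusted p = 0.052) and EEF1E1 under labelled prexasertib (0.0505) lost their calls. Reads outside other genes tested 45 members. The compared groups alone cannot give the interaction.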
